A study of Mus musculus with 6 samples.

Results

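Complement genes were examined in the spleen of NOD.B10 mice, a model of primary Sjögren's syndrome, and of BL/10 controls. The 9 genes described here were chosen by name and not by their values, out of 47729 genes counted. They were C1qa, C1qb and C1qc, which encode the chains of C1q, C3, C4b, Hc, which encodes C5, Cfb, which encodes factor B, Cfp, which encodes properdin, and C3ar1, which encodes the receptor for C3a. RNA was sequenced from 3 spleens of each strain. All mice were female and untreated as far as the labels state. NOD.B10 is NOD.B10Sn-H2b/J, a NOD strain that carries the H2 haplotype of the B10 mouse, and BL/10 is C57BL10/SnJ. The strains differ over much of the genome beyond the H2 region, so the effects of disease and of unrelated strain alleles cannot be told apart.

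The labels of these libraries conflict. Sample titles and strain fields name the opposite strain to the descriptions and to the columns of the count table, for all 6 libraries. The strain of the descriptions and columns was used throughout, and every direction given here would reverse under the titles. BL/10 replicate 3 was matched to its column by library number and strain alone. An age of 26 weeks was given for 4 libraries and of 36 weeks for BL/10 replicates 2 and 3, whereas the design text describes age-matched mice. Both older libraries belong to 1 strain, so the only BL/10 library of 26 weeks is replicate 1, which also held the most pancreas acinar markers. A fit with age as a covariate then compares NOD.B10 with that 1 library, and age and strain cannot be told apart for the rest.

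Complement is a cascade of plasma proteins that tags targets for uptake, attracts leukocytes and lyses membranes. It is started by C1q bound to antibody, by lectins, or by the alternative pathway, and all routes meet at the cleavage of C3. The liver makes most circulating components, while C1q and properdin are made largely by myeloid cells. Spleen macrophages bind and clear opsonized particles.

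The libraries held between 15662712 and 18298451 counts assigned to genes. Levels are given as CPM, each gene's counts divided by those of its library and set to a common scale, after TMM scaling for library composition, with the SD over 3 libraries. A floor of 3 counts equalled 0.163 to 0.201 CPM. Markers of other cells differed between libraries. Single markers are counted as higher or lower where edgeR's adjusted p was under 0.05, which 17.3% of all genes tested passed. The 12 neutrophil markers summed to 2238 to 2611 CPM in NOD.B10 and 6273 to 13042 CPM in BL/10, and 10 of them were lower in NOD.B10. The 7 monocyte markers summed to 357 to 376 CPM and 604 to 1197 CPM, with 3 lower. The 13 red pulp macrophage markers overlapped between strains, at 4280 to 5401 CPM and 4742 to 5701 CPM, with 2 higher and 2 lower. The 3 marginal zone macrophage markers also overlapped in sum, at 339 to 424 CPM and 367 to 424 CPM, with 1 higher and 1 lower. T cell markers were higher in NOD.B10 for 7 of 9 genes and summed to 727 to 951 CPM against 365 to 467 CPM. B cell markers, at 3341 to 4276 CPM and 2509 to 4669 CPM, fibroblast markers, at 461 to 565 CPM and 455 to 645 CPM, and erythroid markers, at 26410 to 47287 CPM and 29070 to 66773 CPM, overlapped. The overlap of the B cell markers rests on BL/10 replicate 1, at 4669 CPM, and without it 6 of the 8 were higher in NOD.B10, against 0 with it. White pulp stroma markers summed to 1808 to 2104 CPM in NOD.B10 and 1409 to 1708 CPM in BL/10. Hepatocyte markers stayed between 0.335 and 7.31 CPM. Pancreas acinar markers summed to 22.8 to 31.4 CPM in NOD.B10, and to 14600 CPM, 2218 CPM and 113 CPM in BL/10 replicates 1, 2 and 3. No gene of any marker list was at 0 in all libraries. The part of these differences in the results that follow was not tested, except where a value is given.

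Of the 9 genes, 8 had enough counts to be tested, and 3 differed between strains. Cfb and Cfp were higher in NOD.B10 and C3ar1 was lower, while the C1q chains, C3 and C4b did not pass the threshold. The test was edgeR's quasi-likelihood F test, with the threshold set at an adjusted p of 0.05, and 17.3% of all 15330 genes tested passed it. The libraries of the strains did not overlap for 4 of the 8 genes, against 38.0% of all genes tested. In bulk tissue, fewer cells of a type and less RNA per cell cannot be told apart.

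**Figure D1:**
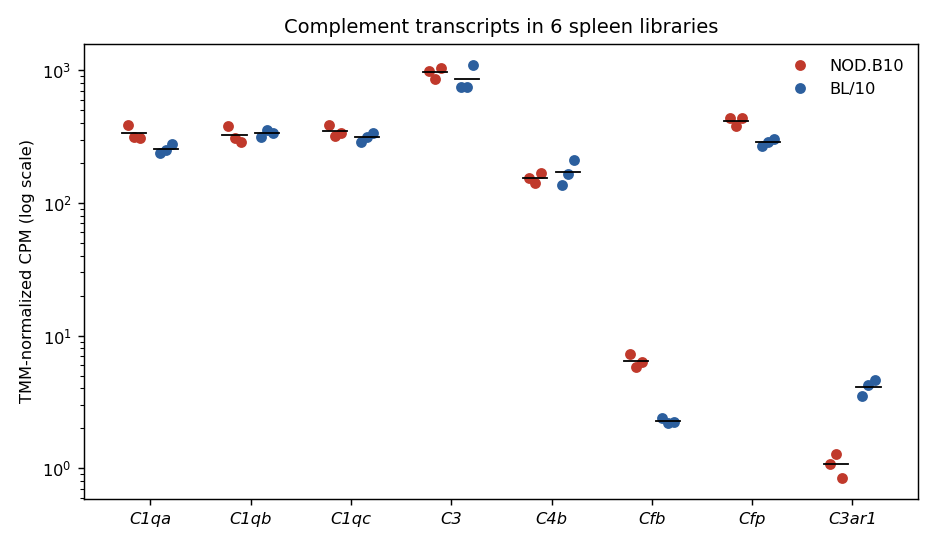
Level of 8 complement genes in each of 6 spleen libraries, in TMM-normalized CPM on a log axis. Points are libraries and horizontal lines are the means of 3 libraries per strain. Cfb, Cfp and C1qa lay higher in every NOD.B10 library, and C3ar1 lay higher in every BL/10 library.

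Promoter sequences were read from RefSeq (GRCm38.p6) for 6 of the 9 genes. They are of the reference genome and not of the sampled mice, whose sequences may differ and were not read. The 250 bases before the start of C1qb, C3, Cfp and C3ar1 are shown on the gene's own strand, since the strains differed at Cfp and C3ar1 but did not pass the threshold at C1qb or C3. Capitals mark matches, on either strand, to the letters of 5 motifs. These were GAGGAA, the core bound by PU.1, TGANTCA, bound by AP-1, TTNNGNAA, bound by C/EBP factors, TGCTGA, a core bound by MAF factors, and GAAA, any 2 bases and GAAA again, an interferon response element. Of 32851 promoters of the same length, 23.3%, 6.75%, 36.8%, 16.1% and 2.98% held each of them in that order.
C1qb: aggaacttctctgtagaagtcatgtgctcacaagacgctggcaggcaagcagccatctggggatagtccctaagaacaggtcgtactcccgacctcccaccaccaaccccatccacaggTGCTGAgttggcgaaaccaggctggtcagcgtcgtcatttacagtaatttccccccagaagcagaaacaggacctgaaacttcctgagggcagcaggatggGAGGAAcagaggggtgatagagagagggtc
C3: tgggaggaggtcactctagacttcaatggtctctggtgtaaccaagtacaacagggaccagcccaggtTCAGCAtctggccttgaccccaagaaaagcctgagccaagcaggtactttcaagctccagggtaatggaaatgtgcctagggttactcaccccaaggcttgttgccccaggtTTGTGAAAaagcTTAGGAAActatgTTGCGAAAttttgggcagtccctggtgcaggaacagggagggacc
Cfp: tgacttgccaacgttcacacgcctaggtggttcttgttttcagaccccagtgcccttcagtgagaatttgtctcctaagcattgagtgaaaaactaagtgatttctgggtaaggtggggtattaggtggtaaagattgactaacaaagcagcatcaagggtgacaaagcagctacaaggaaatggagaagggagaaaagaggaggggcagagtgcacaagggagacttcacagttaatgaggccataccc
C3ar1: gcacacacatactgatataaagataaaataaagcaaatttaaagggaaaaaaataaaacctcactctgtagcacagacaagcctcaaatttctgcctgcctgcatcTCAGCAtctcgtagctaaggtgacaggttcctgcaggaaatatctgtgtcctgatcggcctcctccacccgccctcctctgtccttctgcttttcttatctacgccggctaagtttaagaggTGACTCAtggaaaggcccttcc
The windows lie on the minus strand at chr4:136886201-136886450, chr17:57228137-57228386, chrX:20931556-20931805 and chr6:122856158-122856407. C1qb held the MAF letters at -131 and the PU.1 letters at -30, counted from the start. C3 held the C/EBP letters at -70, -58 and -45 and the MAF letters at -182. C3ar1 held the MAF letters at -144 and the AP-1 letters at -22. None of the 5 was found in the window of Cfp, which says only that these letters are not in it. Matches did not overlap one another, and each is a description of the sequence and not a binding site.

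C1q is the recognition molecule of the classical pathway, built from chains encoded by 3 adjacent genes on chromosome 4. C1qa (ENSMUSG00000036887, chr4:136895917-136898803) was at 387, 312 and 308 CPM in NOD.B10 replicates 1 to 3 and at 236, 249 and 276 CPM in BL/10. Every NOD.B10 library was above every BL/10 library. The means were 335 ± 44.5 CPM and 254 ± 20.2 CPM (SD, n = 3 each), a log2 fold change of 0.40 (SE 0.13, 95% interval 0.11 to 0.69). This did not pass edgeR's test (adjusted p = 0.0653), but passed with DESeq2 (adjusted p = 0.0296) and with limma-voom (adjusted p = 0.0452).

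C1qb (ENSMUSG00000036905) was at 377, 309 and 286 CPM in NOD.B10 and at 312, 354 and 338 CPM in BL/10, and the strains overlapped. Its log2 fold change was -0.05 (SE 0.13, 95% interval -0.35 to 0.25, edgeR adjusted p = 0.828). C1qc (ENSMUSG00000036896) was at 389, 320 and 338 CPM in NOD.B10 and at 286, 314 and 335 CPM in BL/10, again with overlap. Its log2 fold change was 0.16 (SE 0.12, 95% interval -0.11 to 0.43, edgeR adjusted p = 0.362). NOD.B10 replicate 1 was the highest of the 6 libraries for all 3 chains.

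The balance among the chains was described per length, as each chain's share of the summed CPM per kb of exon. C1qa made up 40.4%, 40.0% and 40.3% in NOD.B10 and 34.3%, 33.0% and 35.4% in BL/10. C1qb made up 37.7%, 37.9% and 35.8% in NOD.B10 and 43.3%, 44.7% and 41.5% in BL/10. Neither share overlapped between strains. The share of C1qc was 22.6% ± 1.07 in NOD.B10 and 22.6% ± 0.435 in BL/10 (SD, n = 3 each). C1qa counts were 1.03, 1.01 and 1.08 times those of C1qb in NOD.B10, and 0.757, 0.705 and 0.816 times in BL/10. In exact two-sided permutation tests of the 3 shares, p was 0.1 for C1qa and for C1qb, the smallest that 3 libraries against 3 can give, and 1.0 for C1qc. The shares of a library sum to the whole, so these tests are not independent, and none could reach 0.05.

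**Figure D2:**
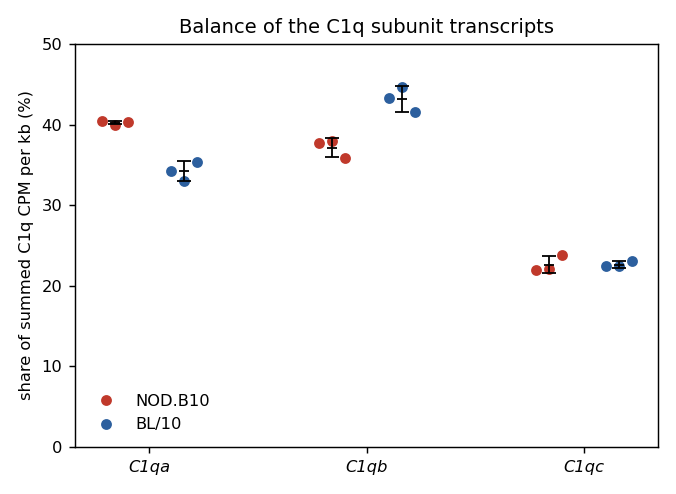
Share of each C1q chain in the summed C1q signal of a library, in percent of CPM per kb. Points are libraries, and bars are mean ± SD of 3 libraries per strain. C1qa took 40.0% to 40.4% in NOD.B10 and 33.0% to 35.4% in BL/10, while C1qc shares overlapped.

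The genes whose profile over the 6 libraries was most like the mean log2 CPM of the C1q chains were Zfhx3, Sirpa, Stx3, Siglece and Ppfia4. They were ranked among 11549 genes with a mean of at least 5 CPM, and their Pearson r ranged from 0.965 to 0.979. Sirpa, the macrophage receptor for CD47, ran from 287 to 409 CPM. Siglece, a sialic acid receptor of myeloid cells, ran from 25.4 to 53.1 CPM. All 5 were highest in NOD.B10 replicate 1. These correlations are a description over 6 libraries that share their depth and composition with the C1q values.

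C3 and C4b are cleaved to the fragments that bind covalently to targets. C3 (ENSMUSG00000024164) had the highest CPM of the 9 genes before division by length. It was at 989, 858 and 1039 CPM in NOD.B10 and at 744, 749 and 1099 CPM in BL/10. BL/10 replicate 3 was the highest library, and the strains overlapped. The log2 fold change was 0.16 (SE 0.18, 95% interval -0.26 to 0.57, edgeR adjusted p = 0.574). C4b (ENSMUSG00000073418, chr17:34728380-34743882), which encodes C4, was at 155, 141 and 167 CPM in NOD.B10 and at 137, 166 and 210 CPM in BL/10. Its log2 fold change was -0.15 (SE 0.16, 95% interval -0.52 to 0.22, edgeR adjusted p = 0.548). Its near-identical paralog C4a had 4 to 14 counts per library. Reads could have been assigned to the wrong one of C4a and C4b, or left out where they fit both.

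Hc (ENSMUSG00000026874, chr2:34983331-35061438) encodes C5, from which the C5a fragment and the membrane attack complex arise. The NOD.B10 libraries held 3, 0 and 1 counts of Hc, and the BL/10 libraries 2, 1 and 1. All 6 libraries were at or under the floor of 3 counts, so no fold was computed, and a difference was not detectable at this depth. NOD-derived strains are known for a loss-of-function allele of Hc, which these counts cannot show.

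Cfb (ENSMUSG00000090231, chr17:34856374-34862518) encodes factor B, the protease of the alternative pathway's C3 convertase. It had 121, 94 and 113 counts in NOD.B10, or 7.24, 5.77 and 6.35 CPM. BL/10 libraries had 44, 33 and 39 counts, or 2.39, 2.21 and 2.22 CPM. Every NOD.B10 library was above every BL/10 library. The means were 6.45 ± 0.737 CPM and 2.27 ± 0.101 CPM (SD, n = 3 each), a log2 fold change of 1.50 (SE 0.17, 95% interval 1.11 to 1.89) and a fold of 2.83. Cfb passed edgeR's test (adjusted p = 0.00125). The annotation places 79.5% of its 2825 exon bases also in Gm20547, a read-through gene listed at 0 counts in every library. The counting left such shared reads out, so the values of Cfb rest on 579 bases of its own and understate its total. A difference between strains in these few bases, in sequence or in start site, was not tested.

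Cfp (ENSMUSG00000001128, chrX:20925454-20931555) encodes properdin, which stabilizes the same convertase. It was at 433, 382 and 433 CPM in NOD.B10 and at 266, 288 and 305 CPM in BL/10, with no overlap. The means were 416 ± 29.5 CPM and 286 ± 19.8 CPM (SD, n = 3 each), a log2 fold change of 0.54 (SE 0.11, 95% interval 0.29 to 0.79) and a fold of 1.45. Cfp passed edgeR's test (adjusted p = 0.014). The call was lost without NOD.B10 replicate 1 (edgeR adjusted p = 0.0743) or replicate 3 (edgeR adjusted p = 0.0578). Properdin is stored by neutrophils, and the summed neutrophil markers were lower in every NOD.B10 library, with 10 of 12 genes lower. Cxcr2 and Csf3r, on the same list, had log2 fold changes of 0.58 and -0.01 and did not pass edgeR's test. The part of neutrophils in Cfp was not tested.

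C3ar1 (ENSMUSG00000040552, chr6:122847138-122856161) encodes the receptor through which C3a acts on myeloid cells. It had 18, 21 and 15 counts in NOD.B10, or 1.08, 1.29 and 0.843 CPM. BL/10 libraries had 64, 63 and 82 counts, or 3.48, 4.22 and 4.66 CPM, all above NOD.B10. The means were 1.07 ± 0.224 CPM and 4.12 ± 0.599 CPM (SD, n = 3 each), a log2 fold change of -1.94 (SE 0.24, 95% interval -2.49 to -1.40), or 3.84-fold higher in BL/10. C3ar1 passed edgeR's test (adjusted p = 0.00177). The summed monocyte and neutrophil markers were also lower in every NOD.B10 library, with 3 of 7 and 10 of 12 genes lower. Ccr2 and Cx3cr1, on the monocyte list, had log2 fold changes of 0.18 and 0.40 and did not pass. The red pulp macrophage sums overlapped, with 2 genes higher, Cd163 among them (1.70), and 2 lower, Cd5l among them (-1.63). The part of any of these in C3ar1 was not tested.

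Levels were compared between genes only as CPM per kb of exon bases that no other gene shares. In NOD.B10 the order was C1qa at 323, C1qb at 298, Cfp at 239, C3 at 187, C1qc at 181, C4b at 27.1, Cfb at 11.1, C3ar1 at 0.248 and Hc at 0.0127 CPM per kb. C1qa and C1qb overlapped, as did C3 and C1qc. In BL/10 the order was C1qb at 308, C1qa at 244, C3 at 168, Cfp at 165, C1qc at 161, C4b at 30.0, Cfb at 3.93, C3ar1 at 0.957 and Hc at 0.0125 CPM per kb. C3 overlapped with Cfp, and Cfp with C1qc. Divided by its whole length, Cfb came to 2.28 CPM per kb in NOD.B10 and 0.805 in BL/10, where it then overlapped with C3ar1.

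The other genes of the pathway were taken from a list of 48, of which 32 were tested. In NOD.B10, 7 were higher and 6 lower, against 9.11% and 8.22% of all genes tested in the same directions. The counts by role given below are of few genes each and stand against the same shares. No role was tested as a set. The libraries of 16 of the 32 did not overlap, against 38.0% of all genes tested. The other 16 genes had too few counts, and 8 of these had at most 3 counts in every library.

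**Figure D3:**
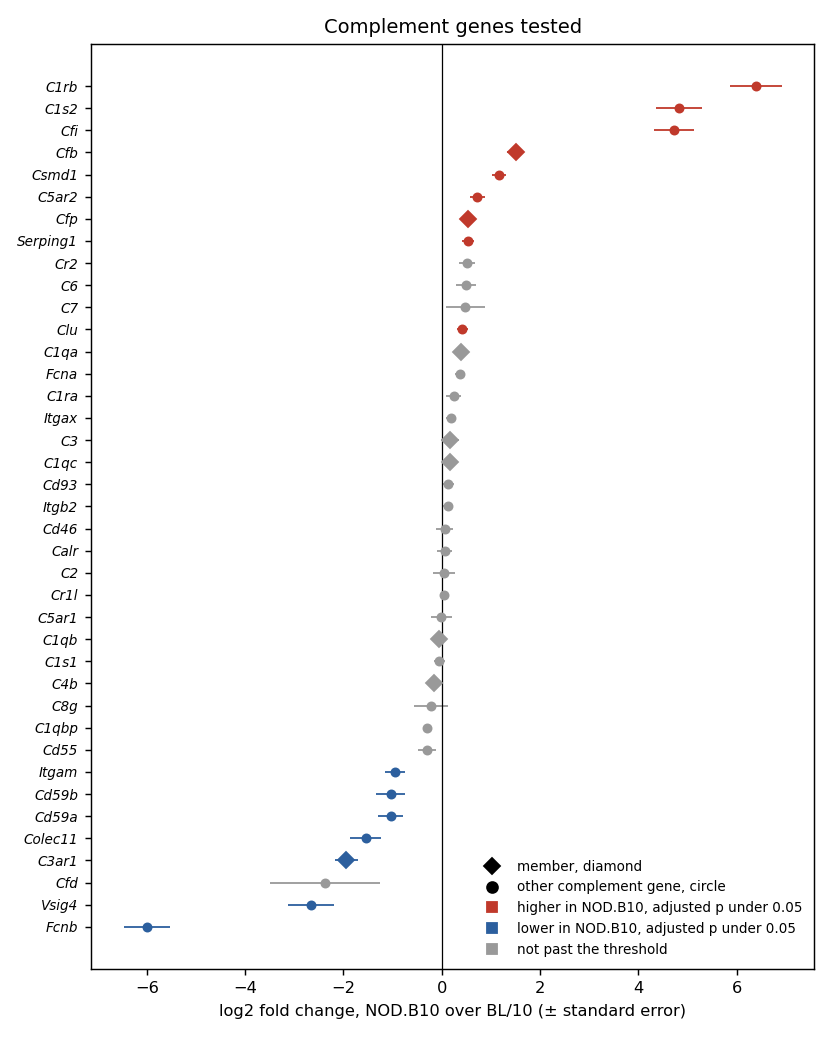
Log2 fold change of NOD.B10 over BL/10 for 39 of the 40 complement genes tested, with bars of 1 standard error. Diamonds are the genes chosen by name and circles the others, coloured by whether edgeR's adjusted p was under 0.05. C1rb, C1s2 and Cfi lay farthest up and Fcnb farthest down.

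Among classical pathway proteases, 2 of 5 tested were higher in NOD.B10. C1rb, a paralog of the protease C1r, drew 34, 39 and 42 counts from NOD.B10 libraries and 0, 0 and 1 from BL/10 libraries. The ratio of summed counts was 115 (95% counting interval 20.3 to 4596, edgeR adjusted p = 0.000277). C1s2, a paralog of the protease C1s, had 75, 65 and 68 counts against 4, 3 and 0, a ratio of 29.8 (95% counting interval 14.2 to 75.1, edgeR adjusted p = 0.000628). The more abundant C1ra (log2 fold change 0.24, edgeR adjusted p = 0.31) and C1s1 (-0.05, edgeR adjusted p = 0.772) did not pass. Reads could have been assigned to the wrong one of these paralogs, or left out where they fit several, which was not tested. Of the exon bases of C1s2, 78.3% also belong to another gene.

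Of 3 lectin pathway genes tested, 2 were lower in NOD.B10. Fcnb, the ficolin of myeloid cells, drew 10, 13 and 14 counts from NOD.B10 libraries and 442, 1024 and 865 from BL/10 libraries, a log2 fold change of -6.00 (SE 0.47, edgeR adjusted p = 0.000228). Its BL/10 libraries ranked in the order of their summed neutrophil markers, and its NOD.B10 libraries did not. Fcnb was at 0.598, 0.798 and 0.787 CPM in NOD.B10 replicates 1 to 3, beside neutrophil sums of 2380, 2611 and 2238 CPM. The part of neutrophils in Fcnb was not tested. Colec11, a collectin, had 4 counts in each NOD.B10 library and 11, 10 and 15 in BL/10 (log2 fold change -1.55, edgeR adjusted p = 0.0164). Fcna, the ficolin of macrophages, was at 415 ± 20.1 CPM and 322 ± 33.3 CPM (SD, n = 3 each) and did not pass (log2 fold change 0.37, edgeR adjusted p = 0.0606). Masp2, a protease bound to lectins, was not tested, and had 7, 9 and 16 counts against 0, 0 and 1, a ratio of 32.1 (95% counting interval 5.36 to 1307). Of its exon bases, 54.9% also belong to Tardbp. Masp2 was named after its values were seen.

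Cfd, which encodes factor D, the protease that activates factor B, was at 6.04, 3.75 and 10.3 CPM in NOD.B10 and at 1.79, 13.5 and 89.7 CPM in BL/10. Its log2 fold change of -2.38 (SE 1.12) did not pass edgeR's test (adjusted p = 0.176) and came to -0.16 without BL/10 replicate 3. Without BL/10 replicate 1 it was -2.95 (edgeR adjusted p = 0.0242). Adipocyte markers summed to 112 CPM in BL/10 replicate 3 and to 30.1 to 47.1 CPM in the other libraries. Fat cells are the main source of factor D, and their part in the Cfd values was not tested.

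**Figure D4:**
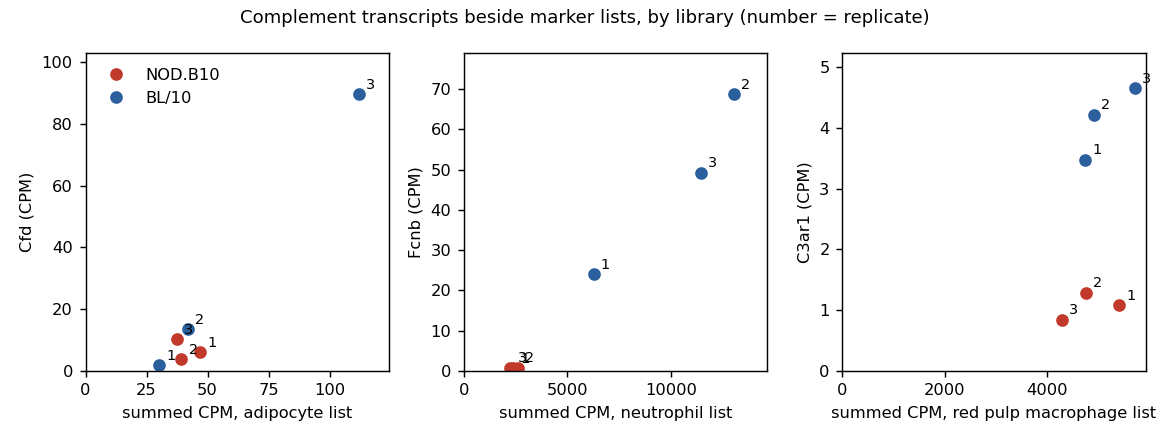
Level of Cfd, Fcnb and C3ar1 in CPM against the summed CPM of the adipocyte, neutrophil and red pulp macrophage marker lists, by library. Points are libraries and numbers are replicates. BL/10 replicate 3 stands apart for Cfd and the adipocyte list, Fcnb and the neutrophil list were both higher in BL/10, and C3ar1 separated the strains where the macrophage list overlapped.

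None of the 3 terminal pathway genes tested passed edgeR's test. C6 was at 32.7 ± 9.18 CPM in NOD.B10 and 23.4 ± 3.14 CPM in BL/10 (SD, n = 3 each, log2 fold change 0.49, adjusted p = 0.138), and C8g had a log2 fold change of -0.22 (adjusted p = 0.7).

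Of 4 fluid-phase regulators tested, 3 were higher in NOD.B10. Cfi, factor I, which cleaves C3b and C4b, had 35, 29 and 24 counts in NOD.B10 and 1 count in each BL/10 library. The ratio of summed counts was 29.4 (95% counting interval 9.74 to 145, edgeR adjusted p = 0.000355). Serping1, the inhibitor of C1r and C1s, was at 208 ± 16.3 CPM and 142 ± 19.2 CPM (SD, n = 3 each, log2 fold change 0.54, edgeR adjusted p = 0.0229). Clu, clusterin, an inhibitor of membrane attack, was at 604 ± 41.7 CPM and 452 ± 41.2 CPM (SD, n = 3 each, log2 fold change 0.42, edgeR adjusted p = 0.0447). The call of Clu was lost in 10 of 17 alternatives, among them every omission of 1 library except that of BL/10 replicate 1, where the edgeR adjusted p otherwise ran from 0.065 to 0.172.

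Membrane regulators were split, with 1 of 6 tested higher and 2 lower. Csmd1, a large membrane protein that inhibits complement, was at 13.9 ± 1.14 CPM in NOD.B10 and 6.19 ± 0.872 CPM in BL/10 (SD, n = 3 each, log2 fold change 1.16, edgeR adjusted p = 0.002). Cd59a and Cd59b, which block the membrane attack complex, each had a log2 fold change of -1.04 (edgeR adjusted p = 0.0272 and 0.0457). They are paralogs, and reads could have been assigned to the wrong one or left out where they fit both. Cd59a levels were 19.0 ± 6.16 CPM and 39.0 ± 8.09 CPM (SD, n = 3 each). Cd55, which speeds the decay of convertases, had a log2 fold change of -0.30 (edgeR adjusted p = 0.307), and Cr1l, which encodes Crry, one of 0.04 (edgeR adjusted p = 0.725).

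Of 10 receptors, all tested, 1 was higher and 2 were lower. C5ar2, a receptor for C5a, was at 7.24 ± 0.42 CPM in NOD.B10 and 4.39 ± 0.495 CPM in BL/10 (SD, n = 3 each, log2 fold change 0.72, edgeR adjusted p = 0.0171). Vsig4, a macrophage receptor for C3b, drew 5, 3 and 7 counts from NOD.B10 libraries and 24, 22 and 51 from BL/10 libraries (log2 fold change -2.66, edgeR adjusted p = 0.00775). Itgam, the alpha chain of complement receptor CR3, was at 17.1 ± 1.66 CPM and 33.1 ± 9.27 CPM (SD, n = 3 each, log2 fold change -0.95, edgeR adjusted p = 0.0199). Neutrophils and monocytes carry CR3, and 68.7% of the exon bases of Itgam also belong to Gm49368. Cr2, the B cell and follicular dendritic cell receptor for C3d, was at 700 ± 125 CPM and 491 ± 64.2 CPM (SD, n = 3 each) without overlap, and did not pass (log2 fold change 0.51, edgeR adjusted p = 0.0662). Calr, which encodes calreticulin, a binding partner of C1q, had a log2 fold change of 0.06 (edgeR adjusted p = 0.799).

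Calls among these other genes differed in how far they rested on 1 library. C1rb, C1s2, Cfi, Csmd1, Fcnb and Vsig4 passed without any 1 of the 6 libraries. Serping1 and C5ar2 were lost without NOD.B10 replicate 1 (edgeR adjusted p = 0.0891 and 0.0782), NOD.B10 replicate 3 (0.0871 and 0.0615) or BL/10 replicate 2 (0.0741 and 0.0515). Cd59a and Cd59b were lost without NOD.B10 replicate 1 (edgeR adjusted p = 0.102 and 0.134), NOD.B10 replicate 3 (0.0858 and 0.134), BL/10 replicate 2 (0.0891 and 0.141) or BL/10 replicate 3 (0.0888 and 0.0877). Itgam was lost without any library but BL/10 replicate 1, and its edgeR adjusted p then ran from 0.055 to 0.0831. Colec11 was lost without any 1 NOD.B10 library, with an edgeR adjusted p from 0.0513 to 0.0702, and was not tested without BL/10 replicate 3. It was also lost with DESeq2 on all libraries (adjusted p = 0.0892). Fcna and C1ra passed without BL/10 replicate 3 (edgeR adjusted p = 0.0443 and 0.047), and Cr2 without BL/10 replicate 1 (edgeR adjusted p = 0.0359). Over all 17 alternatives, Fcna and Cr2 passed in 4 each, and C1ra and Cd55 in 1 each.

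Interferon raises Cfb in many cell types. Of 12 interferon-stimulated genes listed, 8 were lower in NOD.B10, against 8.22% of all genes tested. That number was 2 without NOD.B10 replicate 3, 4 without BL/10 replicate 2 or BL/10 replicate 3, and 5 without NOD.B10 replicate 1 or NOD.B10 replicate 2. It was 9 without BL/10 replicate 1, and 1 at a threshold of 0.01. The 12 genes summed to 464 to 606 CPM in NOD.B10. In BL/10 replicates 1, 2 and 3 they summed to 622, 1410 and 1243 CPM. The wide gap thus rests on the older BL/10 libraries, since replicate 1 lay close to NOD.B10 replicate 1, at 606 CPM. Cfb was higher in every NOD.B10 library. Whether these genes and Cfb are related was not tested.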

How the data were processed

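RNA of whole spleen was sequenced by the authors as 50-base single-end reads from TruSeq libraries. The deposited values are raw counts per gene, made by the authors with featureCounts 1.5.1 on exons of Ensembl annotation 84 (GRCm38), per the file headers, with no strand or multi-mapping option. The submitters' processing notes name HISAT2 2.0.5, while the methods name Tophat2. Reads shared by overlapping genes were not counted. The other genotype named in the header was not analysed here. Symbols came from GENCODE M21, and 47224 of 47729 identifiers matched.

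Genes passing filterByExpr were tested with edgeR 4.0.16 in R 4.3.3 (TMM, quasi-likelihood, strain as the term, Benjamini-Hochberg over 15330 genes, threshold 0.05). Intervals of fold changes used the test's degrees of freedom. Ratios of summed counts have exact 95% intervals, and these and the floor of 3 counts cover counting error only. DESeq2 1.42.0, limma-voom 3.58.1, other scalings, filters, age and the omission of each library were alternatives. Scripts were tested on simulated data.

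The 9 genes, the other lists and the use of the descriptions for strain were chosen with earlier results of these data known. All 9 were named. Of the other complement genes, those past the threshold and, by role, the 2 most abundant that were not were named. The rule allowed up to 3 a role, and the number 2 was set with the counts at hand. The values of 1 tested gene are not reported here.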

Additional observations from a re-analysis of the deposited data

How the results depend on the processing

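With age as a covariate, the BL/10 arm is replicate 1 alone, so values given here for age compare NOD.B10 with that 1 library, which is assumed to vary like the others, and say nothing of an effect of age. The number of the 9 genes called was 3, ran from 2 to 3 when 1 library was left out, and was 4 with DESeq2 or limma-voom, which added C1qa at log2 fold changes of 0.39 and 0.43. Cfb and C3ar1 passed in all 17 alternatives, age among them. Cfp kept its direction at 0.48 to 0.60 when 1 library was left out, and missed a threshold of 0.01 at 0.54. The sign of C1qb and C4b, not called, turned to 0.05 and 0.17 with age as a covariate, and ran from -0.17 to 0.04 and from -0.30 to 0.02 when 1 library was left out. The 13 other complement genes called became 7 with at least 10 counts in every library, 6 with age, 6 at a threshold of 0.01, and 6 to 15 when 1 library was left out, with 6 without NOD.B10 replicate 1 or NOD.B10 replicate 3 and 7 without BL/10 replicate 2. Over all genes, 2656 calls became 943 with age, 1035 at 0.01, and 1269 without NOD.B10 replicate 1 to 4107 without BL/10 replicate 1. Among genes not called, the fit with age gave 0.11 for C1s1 and 1.91 for Cfd, where BL/10 replicate 1 was the lowest of the 6 libraries, limma-voom turned C8g to 0.00 and Calr to -0.02, and leaving out 1 library gave -0.14 to 0.04 for C1s1, -0.50 to 0.03 for C8g and -0.10 to 0.14 for Calr. Other causes were not tested. Without division by length, C1qa, C1qb and C1qc shares were 33.2%, 32.1% and 34.7% in NOD.B10 and 28.2%, 37.2% and 34.6% in BL/10.

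Same-numbered libraries did not all deviate together (r = 0.0542, 0.251 and -0.0762). These values cannot settle whether the numbers pair the samples. With the replicate number as a block, 3 of the 9 genes, 15 other complement genes and 2889 genes in all were called. At 15 to 121 counts per library, Cfb and C3ar1 carry more counting error than the other tested genes of the 9, and Hc could not be assessed.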
